A study of Mus musculus with 8 samples.

Results

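The Wnt ligands, R-spondins and Frizzled receptors were examined in liver macrophage RNA from mice on a western diet (WD, 4 libraries) and mice on a normal diet (ND, 4 libraries). All mice were C57BL/6, a common inbred strain, and no further allele or agent is given by the labels. The sources used here do not give the composition and duration of the diets, the age of the mice or the way the macrophages were isolated. The design text speaks of 4 mice on each diet, which is also the number of libraries. The members are all genes of the authors' deposited table whose symbol starts with Wnt, Rspo, Fzd or Lgr followed by a digit. They were 6 of the 2386 genes listed: Wnt2, Wnt9b, Rspo3, Fzd4, Fzd6 and Fzd8. The GENCODE annotation of mouse holds 36 protein-coding genes with such symbols, so 30 of them were not listed: 17 Wnt ligands, 3 R-spondins, 7 Frizzled receptors and all 3 Lgr receptors.

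The table gives 1 value per gene for the whole comparison and none for a single library, so every error here is the authors' standard error (SE). It lists only genes with an unadjusted p below 0.05 and a log2 fold change beyond 1 in size. Absence from it can mean a change under these limits or no measurement at all. The comparison is written WDV against NDV, with the V not explained, and was taken to be the WD libraries over the ND libraries. Depth per library is unknown. Since these limits on this same comparison decided which family members appear, the values below are descriptions and no test was run on them. The member nearest to the fold limit was Rspo3, at -1.67 in the authors' deposited table, and no value just outside the limit can be given.

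Wnt proteins are secreted, lipid-modified ligands that bind Frizzled receptors and their co-receptors. In the canonical branch this stabilises beta-catenin, which then works with TCF and LEF factors on target genes. R-spondins bind Lgr receptors and keep the ubiquitin ligases Rnf43 and Znrf3 from removing Frizzled receptors. In mouse liver, endothelial cells near the central vein are a known source of Wnt2, Wnt9b and Rspo3, which maintain the pericentral programme of neighbouring hepatocytes.

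The sequences just upstream of Wnt2, Wnt9b and Fzd4 are shown because these members were lower together and have an entry in the RefSeq promoter table (GRCm38.p6, the same assembly as mm10). Each run is written 5′ to 3′ on the gene's own strand and leaves out bases inside annotated exons. Capitals mark a CCAAT box, the letters CCAAT on either strand.
Wnt2 (chr6:18030586-18030695, minus strand): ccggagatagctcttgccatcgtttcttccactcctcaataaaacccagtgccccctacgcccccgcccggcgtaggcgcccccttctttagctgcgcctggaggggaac
Wnt9b (chr11:103749822-103750071, minus strand): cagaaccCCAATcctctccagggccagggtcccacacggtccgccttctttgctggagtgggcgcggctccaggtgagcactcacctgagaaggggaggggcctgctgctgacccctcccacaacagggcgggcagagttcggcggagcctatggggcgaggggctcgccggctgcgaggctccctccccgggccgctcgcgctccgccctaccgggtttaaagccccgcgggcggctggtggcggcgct
Fzd4 (chr7:89404223-89404354, plus strand): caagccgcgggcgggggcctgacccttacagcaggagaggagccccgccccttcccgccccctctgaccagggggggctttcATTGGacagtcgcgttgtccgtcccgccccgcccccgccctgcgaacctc
Motifs of 4 kinds were searched on both strands in the whole 250 bases before each RefSeq start: GATAA (GATA factors), CTTTGA (TCF and LEF factors), ACAAT (SOX factors) and CCAAT. None of these motifs overlapped another in the 3 windows. The GATAA motif occurred in 2 places in the Wnt2 window, 36 to 40 and 5 to 9 bases before the RefSeq start, both inside the first exon as GENCODE annotates it and so outside the run shown. It did not occur in the Wnt9b or Fzd4 window, and 22.6% of all 32851 promoter windows held it. CCAAT occurred 1 time in each of the 3 windows, in Wnt2 inside that first exon and so outside its run, and in 33.8% of all windows. Neither CTTTGA (13.8% of all windows) nor ACAAT (27.7%) occurred in any of the 3. The motifs were chosen with the sequences in view, and a match says only that the letters are present. The 3 windows were rich in G and C, at 63.6% for Wnt2, 72.0% for Wnt9b and 72.8% for Fzd4.

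All 6 members were lower in WD libraries, by 3.19-fold to 9.70-fold in the authors' deposited table. Each had an adjusted p below 0.05, the limit used here for calling a gene. The authors gave an adjusted p to 17531 genes, as recovered from those values, here called the tested genes. Of these, 8.35% were called lower and 3.0% were called higher with more than 2-fold change. Of the 36 annotated family genes 16.7% were called lower and none higher. The members were chosen from this contrast, so nothing is read from that share. No member was listed as higher at the unadjusted limit either. With the other limits used further on, the share of tested genes called lower was 7.38% at an adjusted p below 0.01, 9.58% at an unadjusted p below 0.05, 7.07% with a mean count of at least 10 and 5.41% with a 95% interval wholly beyond 2-fold. In the same order the share called higher was 2.2%, 4.03%, 2.61% and 0.65%. The shares at the unadjusted limit also count the 77 listed genes without an adjusted p, which lie outside the 17531. The median log2 fold change of the 6 members was -2.60, against -1.55 over all listed genes. In the listed genes with a negative fold change the median was -2.08, and 5 of the 6 members lay below it.

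**Figure D1:**
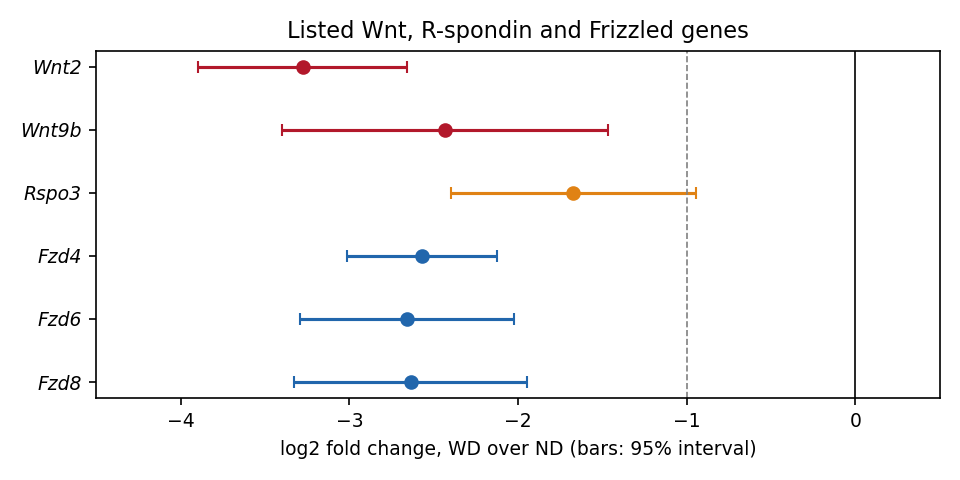
Log2 fold change, WD over ND, of the 6 listed Wnt, R-spondin and Frizzled genes, with points for the authors' deposited estimates and bars for 95% intervals computed from the SE. The dashed line marks the table's limit of -1, which the interval of Rspo3 crosses while the other 5 lie wholly below it.

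Wnt2, a canonical Wnt ligand of endothelium, showed the largest fall of the 6. The authors' deposited table gave it a log2 fold change of -3.28 ± 0.32 (SE), a 9.70-fold lower level in WD with a 95% interval from 6.32-fold to 14.9-fold (adjusted p 1.51e-23). The gene (ENSMUSG00000010797) lies on chromosome 6 from 17988940 to 18030585 on the minus strand in mm10. Over all libraries together, the authors' deposited table gave a mean normalized count of 342. If both diets weigh equally in that mean and the fold change is the ratio of the group means, it corresponds to 63.9 counts in WD libraries and 620 counts in ND libraries. These implied group means carry no error of their own, and the same holds for those given below. Wnt2 ranked 282 among all 2386 listed genes by p-value, and 224 among the 1680 listed lower genes by size of fall.

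Wnt9b, the other listed ligand, was measured at a far lower count. In the authors' deposited table its mean normalized count was 15.8 and its log2 fold change was -2.43 ± 0.49 (SE), or 5.40-fold lower in WD (adjusted p 8.55e-06). The 95% interval ran from 2.77-fold to 10.5-fold, so the size of this fall is known less closely than that of Wnt2. The implied means were 4.95 counts in WD libraries and 26.7 counts in ND libraries. Wnt9b (ENSMUSG00000018486) lies on chromosome 11 from 103727364 to 103749821 on the minus strand. It ranked 1132 by p-value among listed genes and 655 by size of fall among the listed lower genes.

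Rspo3, the secreted amplifier of Wnt signalling made by central vein endothelium in mouse, showed the smallest fall. In the authors' deposited table it had a mean normalized count of 37.5 and a log2 fold change of -1.67 ± 0.37 (SE), or 3.19-fold lower in WD (adjusted p 5.76e-05). Its 95% interval, from 1.93-fold to 5.26-fold, includes falls of less than 2-fold. The implied means were 17.9 counts in WD libraries and 57.0 counts in ND libraries. Rspo3 (ENSMUSG00000019880, chromosome 10, 29452416 to 29535867, minus strand) overlaps an annotated antisense gene, Gm48159, and a further unclassified transcript, Gm20276. Overlap was judged from whole gene spans, not from exons. Whether the libraries kept strand information is not given in the sources used here, so reads from any bases shared by Rspo3 and Gm48159 cannot be told apart. Gm20276 lies on the same strand as Rspo3, where strand information would not help. Neither overlapping gene was listed.

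The 3 listed Frizzled receptors were lower by nearly the same factor. Fzd4, the receptor for Wnt ligands and for norrin in vessels, had the most precise value, a log2 fold change of -2.57 ± 0.23 (SE) in the authors' deposited table (5.93-fold lower, adjusted p 8.37e-28). Fzd6, known for planar polarity in mouse skin and inner ear, stood at -2.66 ± 0.32 in the authors' deposited table (6.31-fold lower, adjusted p 7.76e-15). Fzd8, a receptor of canonical Wnt ligands, stood at -2.64 ± 0.35 in the authors' deposited table (6.22-fold lower, adjusted p 1.99e-12). The 3 estimates span 0.09 on the log2 scale, less than the SE of any of them.

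The counts behind the Frizzled values differed. As mean normalized counts, the authors' deposited table held 477 for Fzd4, 43.2 for Fzd6 and 53.5 for Fzd8. For Fzd4 the implied means were 138 counts in WD libraries and 816 counts in ND libraries. For Fzd6 they were 11.8 in WD and 74.7 in ND, and for Fzd8 they were 14.8 in WD and 92.2 in ND. Fzd4 (ENSMUSG00000049791) lies on chromosome 7 from 89404355 to 89413134, and Fzd6 (ENSMUSG00000022297) on chromosome 15 from 39006034 to 39038188, both on the plus strand. Fzd8 (ENSMUSG00000036904) is on chromosome 18. Fzd6 overlaps the lncRNA gene Gm26704 on the opposite strand, which was not listed. Reads from any bases that both share cannot be told apart without strand information.

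Per length, the members fall into an order that the raw counts do not give. Mean normalized counts from the authors' deposited table were divided by the joined exon length of each gene in GENCODE. Wnt2 was highest at 152 counts per kb, followed by Fzd4 at 71.0 and Rspo3 at 12.1. Fzd6 and Fzd8 were both near 9 (8.98 and 8.96), and Wnt9b was lowest at 3.51 counts per kb. These levels are averages over both diets and have no error in the table, so neighbours in the order cannot be separated from their spread. Among the falls themselves, 1 of the 15 pairs of members, Wnt2 and Rspo3, had 95% intervals that did not overlap. No test of that difference was run, because the same libraries lie behind both values.

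**Figure D2:**
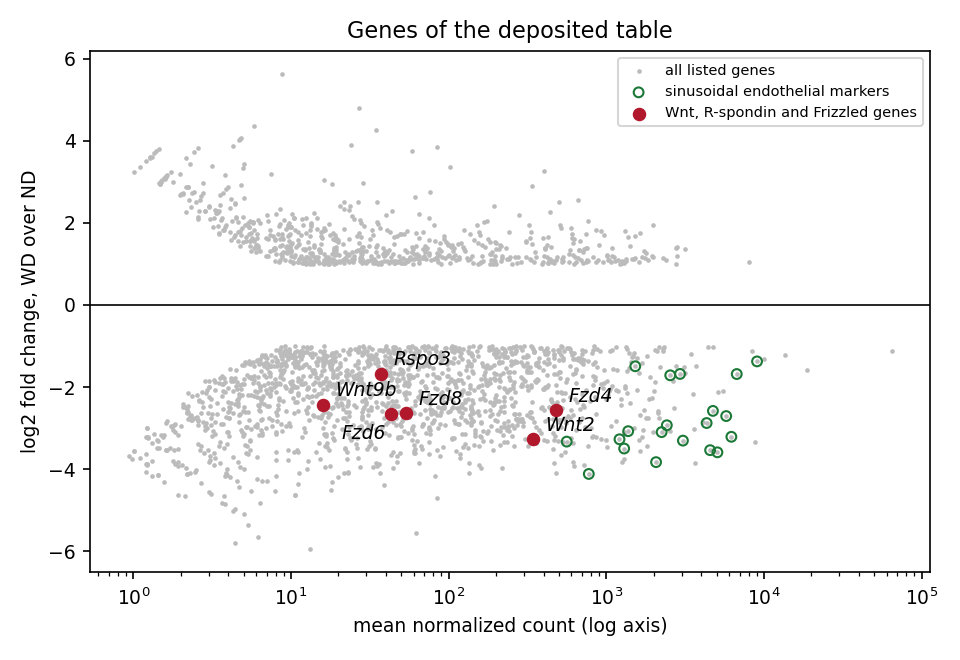
Log2 fold change, WD over ND, against mean normalized count on a log axis for all 2386 genes of the authors' deposited table (grey), the 6 Wnt, R-spondin and Frizzled genes (red) and 20 sinusoidal endothelial markers (green rings). The empty band between -1 and 1 is the limit of the table, and the 6 genes lie between -3.28 and -1.67.

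Genes of a list named for liver sinusoidal endothelium, which was not the labelled cell type, fell along with them. The list also holds genes of endothelium in general, such as Pecam1, Cdh5 and Cldn5. It holds genes that macrophages can express too, such as Fcgr2b and Stab1, so it does not single out sinusoidal cells. All 20 markers of that list were called lower, beside 8.35% of all tested genes. The list was made with earlier results of these data known, so this count is a description. The log2 fold changes of the 20 lay between -4.12 and -1.38, with a median of -3.09 in the authors' deposited table. All 6 members lay within this range. The range is wide and also holds the median of all listed lower genes, -2.08, so it sets no member apart. The 3 markers with the smallest p in the authors' deposited table were Cldn5, a tight junction gene (-4.12 ± 0.20), Egfl7, a secreted endothelial factor (-3.50 ± 0.20), and Gata4, the GATA factor of sinusoidal endothelial identity (-3.33 ± 0.21). What part the endothelial RNA has in the fall of the Wnt and Frizzled genes was not tested. In bulk RNA, fewer cells of a type and less RNA per cell cannot be told apart.

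Several central vein endothelial genes were lower as well. Of 12 markers of that vessel segment, 9 were called lower, beside 8.35% of all tested genes. None was higher, and 3 (Lgals1, Vwf and Fabp4) were not in the table. Wnt2, Wnt9b and Rspo3, 3 of the 9, were chosen from this contrast, so the 9 are no separate evidence about them. The other 6, Rab3b included, had a median of -1.98 in the authors' deposited table. Cdh13, an atypical cadherin gene, stood at -2.34 ± 0.25, and the transcription factor gene Lhx6 at -2.21 ± 0.41, in the authors' deposited table. Kit, a receptor gene that mast cells use too, stood at -1.74 ± 0.15 and Thbd, the thrombomodulin gene, at -1.41 ± 0.22 in the authors' deposited table. Selp, the P-selectin gene, was nearest to the limit at -1.02 ± 0.30 in the authors' deposited table. Rab3b had the largest fall, -5.57 ± 0.48 in the authors' deposited table, and was put in the list with that fall already known.

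The other marker lists moved in different ways. Over all tested genes, 8.35% were called lower and 3.0% higher. None of 10 Kupffer cell and macrophage markers was listed. The table cannot show their level, so the labelled cell type could not be checked by it. Of 12 stellate cell and fibroblast markers, 9 were lower and none higher, led by p by Bgn (-2.01 ± 0.22), Lrat (-2.19 ± 0.42) and Colec11 (-2.37 ± 0.58) in the authors' deposited table. Of 7 lymphatic endothelial markers, Flt4 (-2.93 ± 0.42), Lyve1 (-1.49 ± 0.24) and Reln (-2.05 ± 0.54) were lower in the authors' deposited table, the first pair also being sinusoidal markers and Reln a stellate marker. Of 10 T and NK cell markers, 7 were higher and none lower, led by p by Klrd1 (1.38 ± 0.21), Gzmb (1.51 ± 0.24) and Ncr1 (1.34 ± 0.30) in the authors' deposited table. Of 6 B cell markers, Ighm (1.17 ± 0.24) and Ms4a1 (adjusted p 0.0196) were higher in the authors' deposited table. Among 10 markers of hepatocytes, Ass1 (1.19 ± 0.16), Cyp3a11 (3.91 ± 0.71) and Apob (1.71 ± 0.62) were higher in the authors' deposited table. Of 8 cholangiocyte markers, Pkhd1 alone was listed and was not called (1.02 ± 0.50, adjusted p 0.112) in the authors' deposited table.

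Beyond the ligands and Frizzled receptors, 27 of 86 other Wnt signalling genes were listed, of which 21 were called lower, 2 higher and 4 neither. That is 24.4% called lower, beside 8.35% of all tested genes. The 86 may include genes that were not tested, so the shares rest on unlike sets. The lists were also made with earlier results of these data known. The listed 27 had a median log2 fold change of -1.91 in the authors' deposited table. The 20 sinusoidal endothelial markers were all lower at the same time, and their part in these values was not tested.

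Co-receptors were lower without exception among those listed. Of 11, 5 were called lower, beside 8.35% of all tested genes. The other 6, including Lrp5 and Lrp6, the main canonical co-receptors, were not listed. Adgra2, which with Reck lets brain endothelium respond to Wnt7 ligands in mouse, had the largest fall, -2.74 ± 0.21 in the authors' deposited table. Reck itself stood at -1.34 ± 0.51 in the authors' deposited table (adjusted p 0.0335). Tspan12, a tetraspanin that assists Fzd4 in norrin signalling, stood at -2.60 ± 0.27 in the authors' deposited table, close to the -2.57 of Fzd4. Ryk, a receptor tyrosine kinase-related Wnt receptor, stood at -1.95 ± 0.23 and the glypican gene Gpc4 at -1.97 ± 0.45 in the authors' deposited table.

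Genes that make or restrain the signal changed in both directions. Of all tested genes, 8.35% were called lower and 3.0% higher. Porcn, the acyltransferase that lipidates Wnt proteins, was lower at -1.41 ± 0.32 in the authors' deposited table, and the other 5 secretion genes, including the Wnt carrier Wls, were not listed. Rnf43, which removes Frizzled receptors from the surface and is restrained through R-spondins, was higher at 2.11 ± 0.48 in the authors' deposited table (4.33-fold, adjusted p 9.14e-05, mean count 14.7). Its partner Znrf3 and the Kremen genes, the other 3 of that list, were not listed. Of 17 secreted inhibitors, Dkk3 (-3.31 ± 0.26), a divergent Dickkopf family member, and Igfbp4 (-2.62 ± 0.12), which besides insulin-like growth factors binds Fzd8 and Lrp6, were lower in the authors' deposited table. Apcdd1, a membrane-bound Wnt inhibitor placed in the same list, missed the limit at -1.49 ± 0.61 in the authors' deposited table (adjusted p 0.0517).

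In the beta-catenin cascade 6 of 27 genes were lower, 1 was higher, 2 were listed without passing and 18, Ctnnb1 among them, were not listed. Beside these counts, 8.35% of all tested genes were called lower and 3.0% higher. Nkd1, a feedback inhibitor that binds Dishevelled, showed the largest fall of the 6, -3.39 ± 0.27 in the authors' deposited table (10.5-fold lower, adjusted p 9.38e-33). Its paralog Nkd2 stood at -2.06 ± 0.48 in the authors' deposited table. Tcf7l1, the TCF factor best known as a repressor, stood at -2.55 ± 0.30 in the authors' deposited table. Amer1 (-1.62 ± 0.32), a scaffold of the beta-catenin destruction complex, and the Groucho co-repressor genes Tle2 (-1.57 ± 0.29) and Tle1 (-1.10 ± 0.16) completed the lower genes in the authors' deposited table. Tcf7, a TCF factor used by T cells, was higher at 1.08 ± 0.31 in the authors' deposited table (adjusted p 0.00294). Lef1, likewise a T cell gene, was not called at 1.21 ± 0.56 in the authors' deposited table (adjusted p 0.0934). In the same comparison 7 of 10 markers of T and NK cells were higher, and their part in the values of Tcf7 and Lef1 was not tested.

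The few called target genes of the pathway had no common direction. Of 14 general targets, Nkd1 was lower, Tcf7 and Rnf43 were higher, Axin2, Lef1 and Apcdd1 were listed without passing, and 8 were not listed. The share called lower was 7.14%, near the 8.35% of all tested genes. Called higher were 2 of the 14, a larger share than the 3.0% of all tested genes but a count of 2 only. Axin2, the target most often used as a readout, stood at -1.21 ± 0.57 in the authors' deposited table with an adjusted p of 0.0989 and a mean count of 8.80. Of 12 beta-catenin-dependent genes of pericentral hepatocytes, none was called: Cyp2e1 stood at 1.69 ± 0.79 (adjusted p 0.0944) in the authors' deposited table, Axin2 is also in this list, and the other 10, including Glul, were not listed. These are genes of hepatocytes, which were not the labelled cell type.

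Planar polarity genes are the core of the branch of Wnt signalling that orients cells without beta-catenin. Of 16 genes in a list of that core and of partners outside it, 7 were called lower, beside 8.35% of all tested genes. Prickle1 (-3.96 ± 0.29) and Vangl1 (-3.51 ± 0.37) showed the largest falls of the 7 in the authors' deposited table, at 15.6-fold and 11.4-fold. Their paralogs Prickle2 (-2.87 ± 0.30) and Vangl2 (-1.91 ± 0.39) were lower too in the authors' deposited table. Dact1 (-1.81 ± 0.46), Dact2 (-2.27 ± 0.89) and Daam2 (-1.03 ± 0.38), which encode binding partners of Dishevelled, completed them in the authors' deposited table. Celsr1, an atypical cadherin gene, was not called at 1.08 ± 0.47 in the authors' deposited table (adjusted p 0.0715), and the other 8 were not listed.

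**Figure D3:**
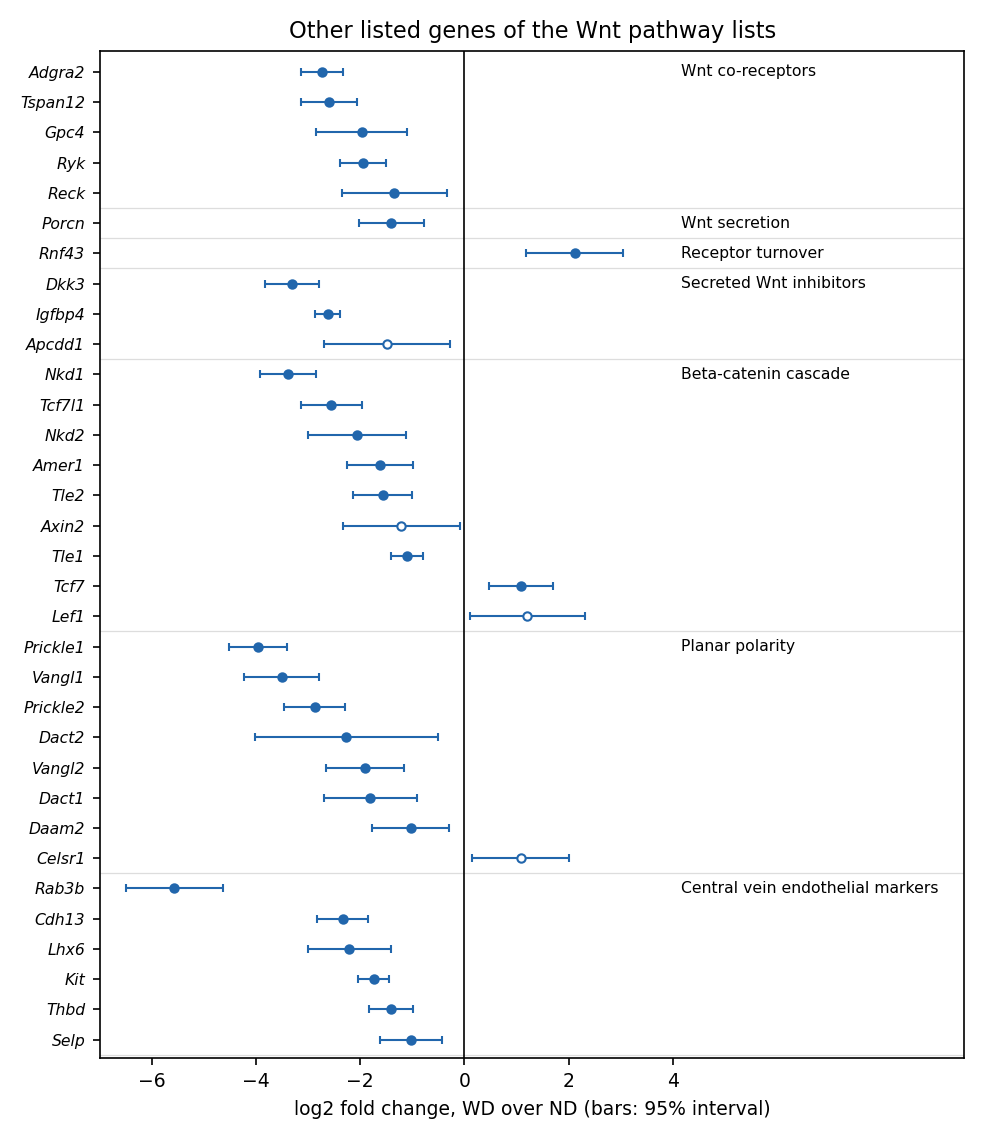
Log2 fold change, WD over ND, of listed genes in 7 of the lists (Wnt co-receptors to central vein endothelial markers, without Wnt2, Wnt9b and Rspo3), with 95% intervals computed from the SE in the authors' deposited table. Filled points had an adjusted p below 0.05 and open points did not; Rnf43 and Tcf7 are the filled points to the right of 0.

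Genes listed with nearly the same fall as the ligands were named by their distance in log2 fold change among genes of similar count, a likeness over 1 comparison only. Among 412 genes with a mean count within 2-fold of that of Wnt2, the nearest in the authors' deposited table were Nr2f2 (-3.27 ± 0.30), the nuclear receptor gene of venous identity, Slc26a10 (-3.28 ± 0.24) and Aass (-3.29 ± 0.46). Among 650 such genes for Wnt9b, the nearest in the authors' deposited table were the protocadherin gene Pcdhga5 (-2.43 ± 0.68), Bmp10 (-2.44 ± 0.49), a ligand of the endothelial receptor Alk1, and Gucy1b1 (-2.42 ± 0.41), a subunit of the nitric oxide receptor.

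Neighbouring genes in the genome were mostly not listed. Within 500 kb of the start of Wnt2, none of 5 protein-coding genes was in the table. Around Wnt9b it was 1 of 14, Mapt, the tau gene, whose start lies 482 kb away and which was lower at -3.62 ± 0.32 in the authors' deposited table (adjusted p 1.26e-27). Wnt3, the ligand gene that starts 24.3 kb from Wnt9b, was not listed. The non-coding genes listed in the windows, Gm43844 near Wnt2 and Arhgap27os3 and C130046K22Rik near Wnt9b, stood at 1.81 ± 0.84, 1.36 ± 0.64 and -2.08 ± 0.96 in the authors' deposited table without passing (adjusted p 0.0910, 0.0959 and 0.0903).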

How the data were processed

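RNA of liver macrophages was sequenced from poly(A)-enriched, fragmented libraries, per the labels' protocols. Tools named in the submitters' processing notes, with no role, are STAR and HISAT2, then StringTie and featureCounts, then DESeq, edgeR and STAR-Fusion, and the build is mm10. The deposited table's columns are named as DESeq2 names its results, per the file headers. For each gene they give a mean normalized count (deposited signal), a log2 fold change and its SE (deposited log2 values), a test score (deposited, equal to the fold change over its SE) and a deposited p-value with its adjusted p-value, all made by the authors. The adjusted p was empty for 77 of 2386 genes, which were not called. No SD or depth per library could be had.

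Computed here with Python 3.11.15 and pandas 2.3.3 were counts at an adjusted p below 0.05, 95% intervals (1.96 SE), implied group means, exon lengths (GENCODE M21, where all 2386 IDs matched) and motif matches. The number of tested genes, 17531, was recovered from the adjusted p-values as the number for which most ranks (91.0%) came out whole, within 0.02. The same step was tested on simulated data and returned the true number for 3 of 3 tables. Named genes were all listed members, all listed genes of the 13 pathway lists, the 3 of smallest p in each of 8 marker lists, the 3 listed genes nearest in fold change to each of Wnt2 and Wnt9b, and listed genes that start within 500 kb of either. Members, lists and limits were chosen with earlier results of these data known. Alternatives changed the adjusted p limit, the fold limit and the minimum count. The authors' p-values set each fold change against its SE, and they speak for these libraries only.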

Additional observations from a re-analysis of the deposited data

How the results depend on the processing

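The counts of members called lower (6) and higher (0) were the same at an adjusted p below 0.01, at an unadjusted p below 0.05 and with a mean count of at least 10. The members are the family genes listed at an unadjusted p below 0.05, so that count was set in advance and no setting could add a member. Their largest adjusted p from the authors was 5.76e-05 and their lowest mean count was 15.8, so the other 2 limits could remove none. With a 95% interval wholly beyond 2-fold, 5 members were lower, Rspo3 being the one lost. A rank tolerance of 0.005 gave the same 17531 tested genes. Wnt2 and Wnt9b kept their direction, and the interval bounds nearest 0 were -2.66 and -1.47. Over the 13 pathway lists together, 33 of 140 genes were lower and 2 higher, beside 8.35% and 3.0% of all tested genes. The 33 include the 6 members, chosen from this contrast, and 6 other central vein endothelial markers, Rab3b among them, so nothing is read from their share. The signalling lists without the member families had 21 of 86 genes lower and 2 higher. Over all 13 lists the lower count was 30 at an adjusted p below 0.01, 35 at an unadjusted p below 0.05, 32 with a mean count of at least 10 and 23 with the interval beyond 2-fold. The higher count was 2 at an adjusted p below 0.01 and with the count minimum, 5 at an unadjusted p below 0.05, where Lef1, Celsr1 and Cyp2e1 join Rnf43 and Tcf7, and 1 with the interval beyond 2-fold, which leaves Rnf43. No paired analysis was possible because the labels give no shared replicate numbers and the table has no values per library. For the same reason leaving out each library, another normalization and another count model were not run. Low counts limit Wnt9b most, with an SE of 0.49 against a median of 0.37 over all listed genes.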
